A study of Rattus norvegicus with 24 samples.

Results

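The transcriptional response to a high-fat diet was examined in control-born rats, that is, rats without the growth retardation in the womb that defines the other birth group of the study. Every array of control-born rats on high-fat diet (CHFD, 6 arrays) was set against every array of control-born rats on chow (CND, 6 arrays). The CHFD arrays titled 10B1 and 10B2 share a title number and were averaged, which left 5 CHFD and 6 CND samples, 11 of the 20 samples and 12 of the 24 arrays of the series. All rats were Sprague Dawley, an outbred laboratory strain, aged 8 months, and the material was labelled as colonic epithelial cells, released from proximal and distal colon together in a calcium-chelating buffer and by vortexing. The other groups were rats with intra-uterine growth retardation (IUGR) on chow (RND, 6 samples) and on high-fat diet (RHFD, 3 samples). They entered the fit to share the estimate of the spread and to compare the diet effect between birth groups. The labels used here do not give the sex of the rats, the composition of the diet, how long it was fed, what the letters A and B in the titles mean, or whether samples are single or pooled animals. The p-values therefore measure the spread between these samples.

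The colonic epithelium is a single layer that absorbs water, salts and short-chain fatty acids, secretes mucus and keeps gut bacteria at a distance. Its absorptive cells carry transporters and water channels, its goblet cells secrete mucins together with small defence proteins such as resistin-like and trefoil proteins, and lymphocytes lie between the epithelial cells. Dietary fat reaches the colon only in part, and in rodents fat-rich diets are known to change the colonic microbiota, bile acids and mucosal defence genes.

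Signal was measured for 22523 probes on each array. Between 8841 and 9367 probes were detected on the CHFD arrays and between 8303 and 9731 on the CND arrays. Over the 10193 probes tested, pairs of samples of different diet correlated with r of 0.95 to 0.977, against 0.962 to 0.982 within CHFD and 0.954 to 0.983 within CND, and the arrays 10B1 and 10B2 with r of 0.992. All 8 epithelial markers on the array (Cdh1, Cldn3, Epcam, Krt8, Krt19, Krt20, Lgals4 and Vil1) were detected on every array of both groups, with mean log2 levels in CND from 9.68 to 14.91, as the label says, and none passed the test (median log2 difference 0.02). Markers of other cells were present too. Of 18 T and natural killer cell markers on the array 2 were detected on no CHFD or CND array, as were 3 of 11 macrophage and dendritic cell markers, 6 of 10 fibroblast and smooth muscle markers and 5 of 6 enteric neuron and glia markers. Because these are bulk samples, fewer cells of a type and less RNA per cell cannot be told apart. Of 5 tested red blood cell markers 0 passed, and their mean log2 level was 5.76 to 7.26 in CHFD and 7.20 to 9.32 in CND. The 3 globin genes Hba-a1, Hbb and Hbb-b1 differed by -2.87, -2.80 and -2.45, while Hba-a2 and Slc4a1 differed by 0.14 and 0.02, and the list median of -2.45 was -1.38 within chip 1, -3.04 within chip 2 and -1.58 without background correction. Hba-a1, an alpha globin, read 7.13 to 9.58 in CHFD against 9.66 to 13.32 in CND (adjusted p = 0.198), and the part of red blood cell RNA in the results below was not tested.

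On high-fat diet, genes for secreted mucosal proteins and for immune cells were among the largest increases, and the water channel gene Aqp8 and the retinoid-binding protein genes Rbp2 and Rbp7 among the largest decreases. At an adjusted p under 0.05 (limma, Benjamini-Hochberg over all 10193 probes), 116 probes differed, or 1.14%, of which 82 were higher (0.804%) and 34 lower (0.334%) in CHFD. Under an unadjusted p of 0.05 there were 1178 probes. Taken with 1 probe a gene, 71 of 7345 genes rose (0.967%) and 23 fell (0.313%), while the median log2 difference of all genes was -0.0026 and the 5th and 95th percentiles were -0.45 and 0.47. Only 41 of the 116 calls, 28 higher and 13 lower, held in each of the 11 fits that left out 1 CHFD or CND sample. With median scaling in place of quantile normalization, which moved the median of all probes to -0.10, 61 probes passed, 36 higher and 25 lower. The share of higher probes was then 59% in place of 70.7%. In a fit of CHFD and CND alone 78 probes passed, 59 higher and 19 lower. Of the 57 named genes and probes that passed, 32 had a log2 difference over 1.5 times smaller without background correction.

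**Figure D1:**
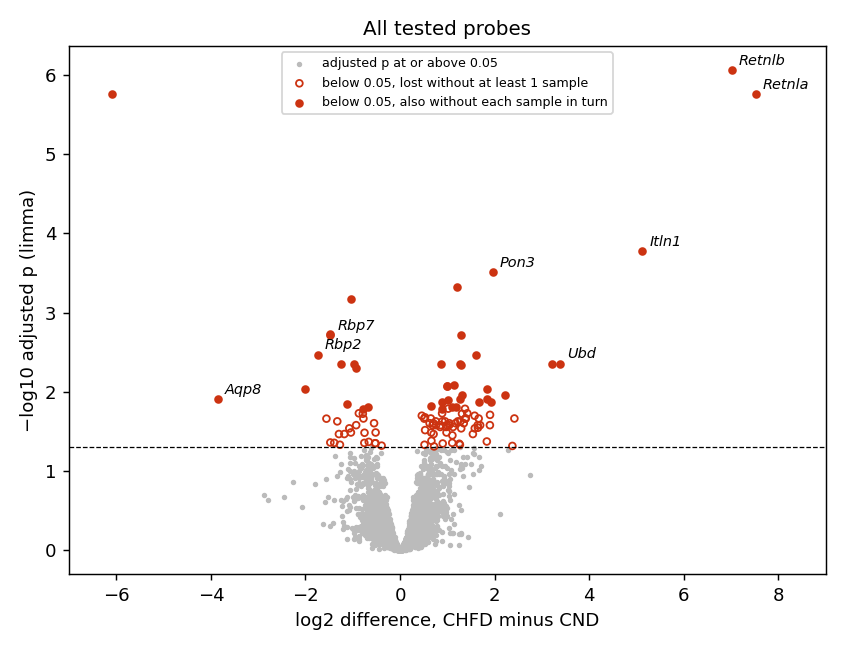
Log2 difference between CHFD and CND (x axis, n = 5 and 6 samples) against the negative log10 of limma's adjusted p (y axis) for each of 10193 probes, with the dashed line at an adjusted p of 0.05. Filled red points mark the 41 calls that held without each sample in turn, among them Retnla and Retnlb at the far right, and the unlabelled point at the far left is a probe without a gene symbol.

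The largest increases were in secreted products of the mucosa: the resistin-like genes Retnla and Retnlb and the lectin gene Itln1. Resistin-like beta, encoded by Retnlb, is a goblet cell protein that acts against bacteria in mice, and intelectin-1, encoded by Itln1, binds sugars on microbial surfaces. Retnla (probe ILMN_1362534) read 11.89, 13.18, 13.26, 13.86 and 12.79 on the log2 scale in CHFD 10B, 4A, 22B, 28B and 8B, against 4.70 to 6.68 (median 5.24) in CND. Retnlb (ILMN_1365931) read 10.0003, 11.53, 11.53, 12.85 and 11.71 in the same order, against 4.30 to 4.80 (median 4.46) in CND. Itln1 (ILMN_1349778) read 13.30, 14.37, 14.02, 14.27 and 13.83, against 7.71 to 10.61 (median 8.23). In all 3 genes the groups lay far apart without overlap, and CHFD 10B was the lowest of the CHFD samples. Retnla rose by 7.53 (SE 0.66, adjusted p = 1.76e-06), Retnlb by 7.02 (SE 0.56, adjusted p = 8.66e-07) and Itln1 by 5.12 (SE 0.61, adjusted p = 0.000167). Retnlb was detected on 0 of 6 CND arrays, so its increase is given as at least 102-fold, a bound without sampling error. The fitted fold of Retnlb had a 95% confidence interval of 57.5 to 291. Itln1 rose 34.8-fold (95% confidence interval 14.4 to 84.1). Without background correction the log2 differences were 6.003, 4.95 and 4.85. The 2 resistin-like genes are close in sequence, and how far one probe reads the other transcript was not tested.

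Other goblet cell genes did not follow this pattern. Of the 7 goblet cell markers tested, 2 rose, Retnlb and Itln1, and 0 fell. The list's median log2 difference of 0.76 includes these 2 genes, and 4 of the 7 differences were above 0 and 3 below. Those below were Zg16 (-0.23), Agr2 (mean level 13.04 in CHFD and 13.47 in CND) and Spink4. The trefoil peptide gene Tff3 differed by 0.76 (SE 0.28, adjusted p = 0.256) and Clca1, a mucus-processing protein, by 1.00 (adjusted p = 0.372). Spink4, a protease inhibitor family member of goblet cells, differed the other way, by -2.27 (SE 0.70, adjusted p = 0.138). Among 16 tested genes of antimicrobial and mucosal defence 4 rose, 3 of them being the genes above. The other was Slpi, a secreted inhibitor of neutrophil proteases, at 9.12, 7.67, 10.61, 8.53 and 9.35 against 4.87 to 7.46 (median 7.13), a log2 difference of 2.38 (SE 0.58, adjusted p = 0.0483). That call was lost without any 1 of 8 samples, CHFD 10B, 4A, 22B and 8B and CND 14A, 18A, 20A and 38B (adjusted p = 0.0515 to 0.124), and also with median scaling (0.0983) or without background correction (0.0517). Reg3g, a secreted antibacterial lectin, read 13.41 to 15.03 in CHFD and 8.92 to 14.004 in CND. Its groups overlapped and its log2 difference of 2.75 (SE 0.81) did not pass (adjusted p = 0.114).

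**Figure D2:**
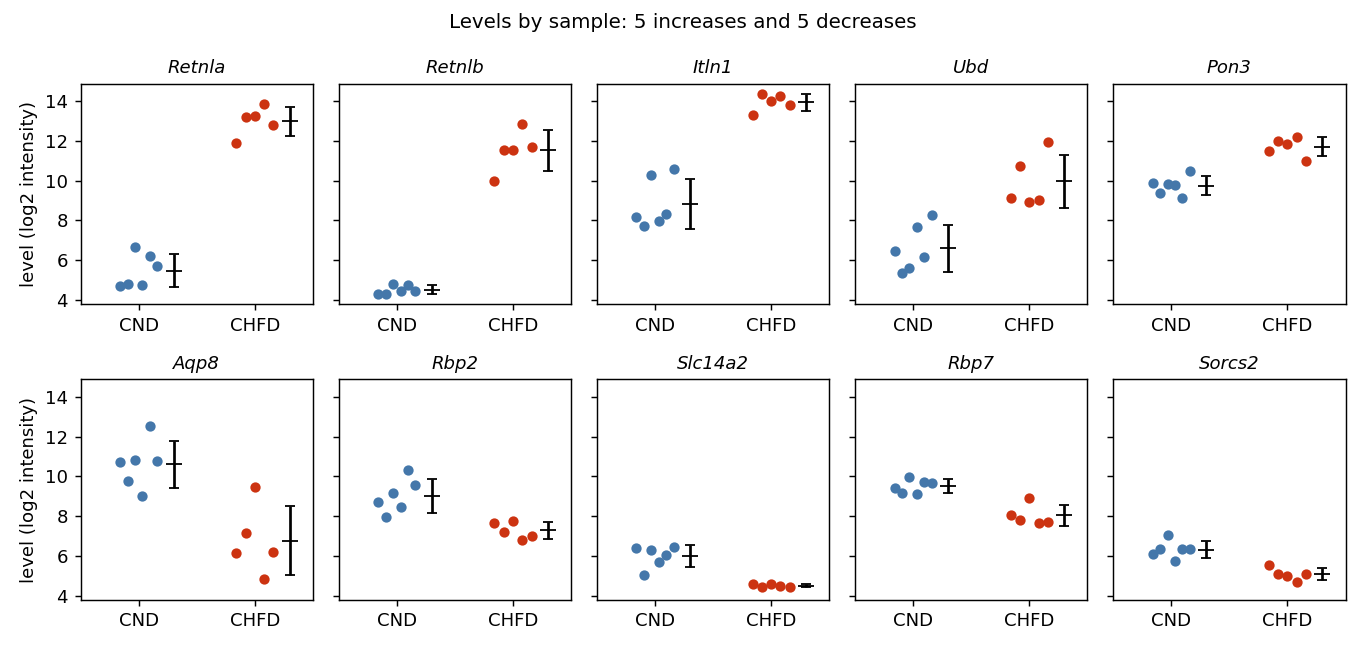
Log2 level of 5 genes that rose (top) and 5 that fell (bottom) in each CND (blue, n = 6) and CHFD (red, n = 5) sample, with the mean and SD beside the points. The groups are apart in every panel except that of Aqp8, where 1 CHFD sample at 9.48 lies among the CND samples.

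Ubd and Pon3 rose as well. Ubd encodes a ubiquitin-like modifier that inflammatory cytokines induce, and Pon3 a lactone-hydrolysing enzyme of the paraoxonase family. Ubd read 9.14, 10.76, 8.93, 9.01 and 11.95 in CHFD 10B, 4A, 22B, 28B and 8B against 5.33 to 8.29 (median 6.32) in CND, and rose 10.4-fold (4.6 to 23.4, adjusted p = 0.00441). The rise of Ubd was 4.25 within chip 1 and 2.23 within chip 2 on the log2 scale. Pon3 read 11.48, 12.004, 11.84, 12.18 and 10.98 against 9.11 to 10.51 (median 9.80) and rose 3.88-fold (2.72 to 5.55, adjusted p = 0.000309). Neither gene's groups overlapped. Ubd was the only one of 18 tested interferon-response genes to pass, against a list median of 0.16; Irf7, a transcription factor of that response, differed by 0.92 (adjusted p = 0.257). Pon2, a paralog of Pon3, rose too, by 0.71 (SE 0.15, adjusted p = 0.0249), and the call was lost without CHFD 22B or 28B or CND 14A, 20A or 36B (adjusted p = 0.0502 to 0.0689) and with median scaling (log2 difference 0.51, adjusted p = 0.583). A second probe of Pon2 did not pass.

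Genes of lymphocytes were higher in CHFD. Of 15 tested markers of T and natural killer cells 6 rose and 0 fell, with all 15 log2 differences above 0 and a median of 1.25. These signs hold for the tested markers only, out of 18 on the array. Cd4, Cd5 and Cd8b were left out by the detection filter. Their means were 4.40, 4.39 and 4.81 in CHFD against 4.42, 4.49 and 4.36 in CND. Of the markers kept, Cd8a was detected on 6 CHFD and 2 CND arrays. The adaptor gene Ptprcap read 7.86, 8.17, 7.70, 7.77 and 9.90 against 5.63 to 7.03 (median 6.48) and rose by 1.92 (SE 0.37, adjusted p = 0.0134). The surface receptor gene Cd7 read 7.56, 7.58, 7.46, 7.94 and 8.77 against 4.94 to 6.96 (median 5.98) and rose by 1.84 (SE 0.35, adjusted p = 0.0123). The differences were 1.27 and 1.08 when no background correction was made. In both genes every CHFD sample was above every CND sample, and CHFD 8B was the highest. Map4k1, a kinase of lymphocyte receptor signalling, rose by 1.29 (SE 0.22, adjusted p = 0.00458), or 0.50 without background correction.

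Sample CHFD 8B stood apart in these genes. Cd8a, which encodes a co-receptor of cytotoxic T cells, read 6.29, 7.06, 6.23, 7.13 and 9.66 in CHFD 10B, 4A, 22B, 28B and 8B against 4.49 to 5.58 (median 4.68) in CND, a difference of 2.42 (SE 0.50, adjusted p = 0.0217). Cd3d and Cd3g, subunits of the T cell receptor complex, and Nkg7, a granule protein, rose by 1.84, 1.25 and 1.69 (adjusted p = 0.0424, 0.0453 and 0.0264). The mean log2 level of the list was 8.54 in CHFD 8B, 6.42 to 7.01 in the other CHFD samples and 5.13 to 6.21 in CND. Without CHFD 8B the list median was 0.87 and 2 of the 15 genes passed. Without background correction Cd8a, Cd3d and Cd3g missed the threshold (adjusted p = 0.11, 0.15 and 0.14), and with median scaling so did Cd3d, Cd3g and Nkg7 (0.0752, 0.108 and 0.0983). Cd8a also missed it without CHFD 8B or CND 14A, 18A or 20A (adjusted p = 0.0515 to 0.0576). Cd3d missed it without CHFD 4A or 8B or CND 14A, 18A, 20A or 32B (0.0553 to 0.108), Cd3g without those samples or CND 36B (0.0502 to 0.108), and Nkg7 without CHFD 10B, 4A or 8B or CND 14A, 18A, 20A or 36B (0.0502 to 0.0834). The chemokine gene Ccl5 read 12.82 in CHFD 8B and 8.97 to 9.53 in the others, with a difference of 2.28 that did not pass (adjusted p = 0.0548), and the granzyme gene Gzma differed by 1.67 (adjusted p = 0.0658). The list median was 1.97 within chip 1 and 0.81 within chip 2, and without background correction 3 of the 15 genes passed, with a median of 0.72.

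Myeloid genes were higher in a more even way. Of 7 tested macrophage and dendritic cell markers 5 rose, all 7 differences were above 0 and the median was 1.28. These signs hold for the tested markers only, out of 11 on the array. Cd163, Itgam, Mrc1 and Mpeg1 were left out by the detection filter. Their means were 4.43, 4.55, 4.37 and 4.68 in CHFD against 4.52, 4.55, 4.49 and 4.66 in CND. Fcer1g, the signalling chain of activating Fc receptors, read 8.73, 8.72, 8.44, 8.69 and 8.73 against 6.71 to 7.94 (median 7.31) and rose by 1.27 (SE 0.21, adjusted p = 0.00441). Sirpa, an inhibitory receptor of myeloid cells, read 6.85, 7.07, 7.04, 6.70 and 6.81 against 4.94 to 6.06 (median 5.62) and rose by 1.31 (SE 0.24, adjusted p = 0.0111). For both genes the CHFD samples lay within a narrow band above all CND samples, and Rgs10, a regulator of G-protein signalling expressed in immune cells, rose by 1.30 (SE 0.19, adjusted p = 0.00192). Sirpa differed by 0.62 and Rgs10 by 0.47 when no background correction was made. The other 4 markers that passed were Cd14, a co-receptor for lipopolysaccharide (1.42, adjusted p = 0.0187), Aif1 (1.35, 0.0249), the complement subunit C1qa (1.10, 0.0441) and the signalling adaptor Tyrobp (0.65, 0.0217). Tyrobp was detected on 0 of 6 CND arrays and was at least 1.26-fold higher. Cd14 missed the threshold without CHFD 22B or CND 20A (adjusted p = 0.0514 and 0.0515), and Aif1 without CHFD 10B, 22B or 8B or CND 14A, 18A or 20A (0.0526 to 0.0757). Tyrobp missed it without CHFD 10B or 22B or those 3 CND samples (0.0515 to 0.0579). C1qa missed it without any sample other than CND 38B (0.0598 to 0.116). The genes C1qb and C1qc differed by 1.30 and 1.28 (adjusted p = 0.0869 and 0.0815). The number of markers passing in the fits without 1 sample ranged from 1 to 7. With median scaling 2 of the 7 passed, and Cd14, C1qa and Tyrobp missed the threshold (adjusted p = 0.105, 0.0844 and 0.0591). Without background correction 4 passed, with a median of 0.71 and C1qa at an adjusted p of 0.132, and the median was 1.69 within chip 1 and 0.90 within chip 2.

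In the B cell and mast cell lists 1 marker each passed, where 0.967% of all genes rose. All 4 B and plasma cell differences were above 0, with a median of 0.79, or 0.33 without background correction. Of the 5 mast cell and granulocyte differences 4 were above 0, with a median of 0.25, or 0.09 without background correction. These signs hold for the tested markers only, out of 6 and 14 on the array. In the B and plasma cell list the detection filter left out Pax5 and Tnfrsf17. Their means were 4.33 and 4.47 in CHFD against 4.43 and 4.36 in CND. Cd79b, which was kept, was detected on 6 CHFD and 2 CND arrays. Cd79b differed by 0.80 (adjusted p = 0.104) and Mcpt1 by 1.26 (adjusted p = 0.0936). Cd37, a tetraspanin of B cells, was the only one of 4 tested B and plasma cell markers to rise, by 1.04 (SE 0.23, adjusted p = 0.0264), and was lost without CHFD 4A, 22B or 8B or CND 18A or 20A (0.0546 to 0.084) or without background correction (0.0826). Mcpt10, a mast cell protease, was the only one of 5 tested mast cell and granulocyte markers to rise, by 1.38 (SE 0.29, adjusted p = 0.0218), and was lost without CHFD 4A, 28B or 8B or CND 18A or 20A (0.0502 to 0.0677) or with median scaling (0.107). Among epithelial subtypes the tuft cell marker Dclk1 differed by 1.06 (adjusted p = 0.0722) and the enteroendocrine hormone gene Gcg by -0.96 (adjusted p = 0.124).

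Several class II antigen presentation genes rose. Class II molecules are surface proteins that display peptides to helper T cells, in rats encoded in the RT1 complex, and Cd74 is the chain that guides them through the cell. Of 8 tested genes 4 rose and 0 fell, with a median log2 difference of 1.22, or 0.80 without background correction. The RefSeq promoter of each of the 4, 250 bases before to 50 bases after the start of the gene on the GRCr8 assembly, is printed with marked matches. The windows are RT1-Ba at chr20:4576807-4577106 (plus strand), RT1-Da at chr20:4515165-4515464 (plus), RT1-Db1 at chr20:4560113-4560412 (minus) and Cd74 at chr18:56526956-56527255 (plus), each written 5′ to 3′ along its gene. Capitals mark matches on either strand to ATTGG, the core of the Y box, and to TAGCAAC, a core of the X box, which are elements known from class II promoters.
RT1-Ba: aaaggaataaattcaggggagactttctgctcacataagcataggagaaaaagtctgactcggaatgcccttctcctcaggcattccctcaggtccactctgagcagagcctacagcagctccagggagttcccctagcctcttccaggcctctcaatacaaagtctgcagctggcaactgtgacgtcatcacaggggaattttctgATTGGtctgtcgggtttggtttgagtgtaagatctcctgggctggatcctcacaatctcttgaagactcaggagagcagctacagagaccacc
RT1-Da: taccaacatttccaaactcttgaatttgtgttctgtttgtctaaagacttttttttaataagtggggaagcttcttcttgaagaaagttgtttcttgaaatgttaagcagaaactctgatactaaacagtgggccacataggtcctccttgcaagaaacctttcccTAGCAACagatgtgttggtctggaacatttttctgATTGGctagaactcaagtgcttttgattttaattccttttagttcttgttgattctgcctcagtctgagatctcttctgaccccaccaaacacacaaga
RT1-Db1: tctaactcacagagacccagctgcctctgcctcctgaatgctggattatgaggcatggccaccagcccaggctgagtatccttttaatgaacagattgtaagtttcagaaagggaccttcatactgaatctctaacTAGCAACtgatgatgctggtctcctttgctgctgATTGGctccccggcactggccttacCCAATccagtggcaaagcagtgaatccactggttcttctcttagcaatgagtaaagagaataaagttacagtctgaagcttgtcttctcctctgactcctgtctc
Cd74: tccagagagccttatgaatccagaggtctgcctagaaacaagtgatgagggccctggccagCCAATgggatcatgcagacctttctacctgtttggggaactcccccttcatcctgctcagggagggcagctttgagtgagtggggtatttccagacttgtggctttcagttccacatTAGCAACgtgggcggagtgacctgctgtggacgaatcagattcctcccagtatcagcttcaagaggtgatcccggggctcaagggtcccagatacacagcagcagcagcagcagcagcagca
All 4 windows held ATTGG or its reverse complement, as did 37.7% of the 27457 rat promoters in the same table. The TAGCAAC core was present in the windows of RT1-Da, RT1-Db1 and Cd74 and absent from that of RT1-Ba, against 3.54% of all promoters, and both motifs together occurred in 1.43% of all promoters. The motifs did not overlap. A match describes these letters only.

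In level, RT1-Ba read 7.78, 6.91, 8.24, 7.85 and 7.56 in CHFD 10B, 4A, 22B, 28B and 8B against 4.87 to 6.57 (median 5.91) in CND, and rose by 1.83 (SE 0.33, adjusted p = 0.00927), a call that held without each sample; without background correction the difference was 1.03. RT1-Da read 11.32, 10.59, 11.51, 10.63 and 11.49 against 7.76 to 9.92 (median 9.28), a difference of 1.90 (SE 0.39, adjusted p = 0.0196). RT1-Db1 rose by 1.90 (SE 0.42) and Cd74 by 1.64 (SE 0.36), each at an adjusted p of 0.0264. No CHFD sample of these 4 genes overlapped CND, and CHFD 22B was the highest sample in each. RT1-Da was lost without CHFD 22B or 8B (adjusted p = 0.0564 and 0.0622). RT1-Db1 and Cd74 were lost without CHFD 10B, 22B or 8B or CND 14A, 18A or 20A (0.0547 to 0.0766 and 0.0515 to 0.0839). Of the peptide-loading chains, RT1-DMb differed by 0.80 (adjusted p = 0.152) and RT1-DMa by -0.77 (adjusted p = 0.113). RT1 genes are close paralogs, and how far their probes read each other was not tested. In class I presentation, 1 of 18 tested genes rose, RT1-S3 by 0.90 (adjusted p = 0.045), and this was lost without CHFD 4A, 22B, 28B or 8B or CND 14A, 18A, 20A or 32B (0.0655 to 0.127) and with median scaling (0.392). The immunoproteasome subunit gene Psmb10 and the peptide transporter gene Tap2 differed by 0.63 and 0.76 (adjusted p = 0.0936 and 0.108).

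**Figure D3:**
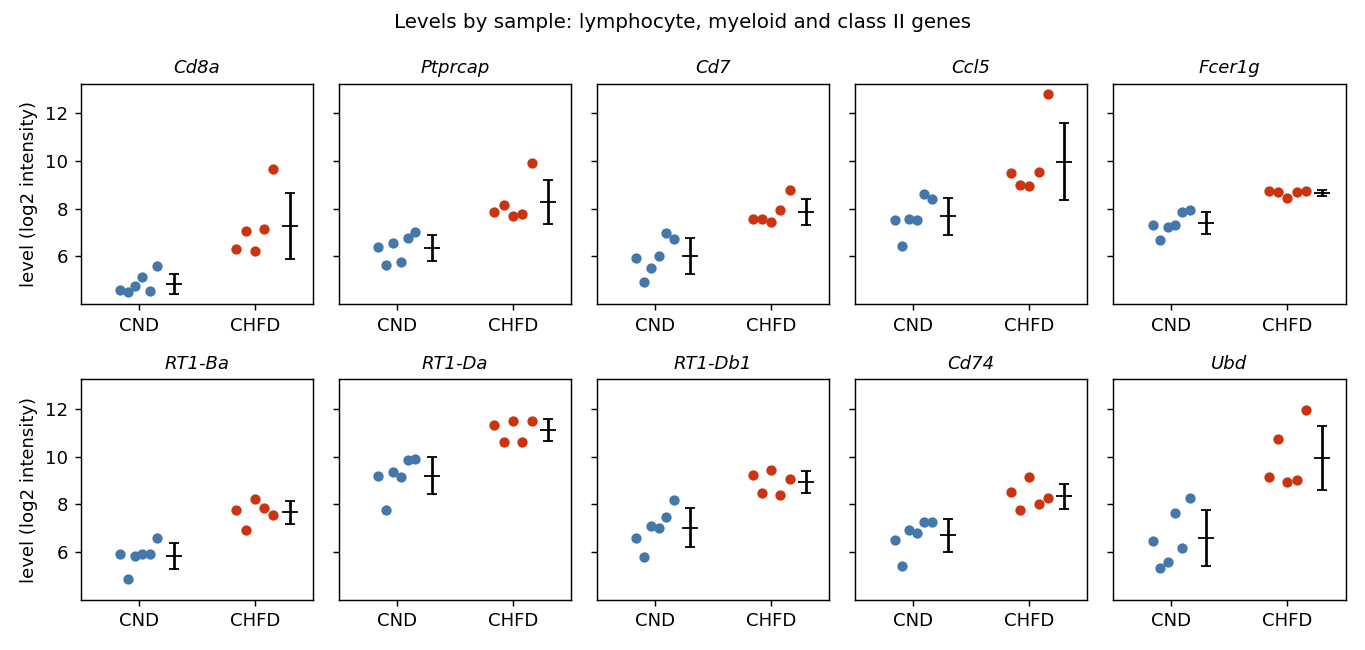
Log2 levels of lymphocyte, myeloid and class II genes and of Ubd in each CND (blue, n = 6) and CHFD (red, n = 5) sample, with mean and SD. CHFD 8B, the last red point in each panel, is the highest in the T cell genes, at 9.66 for Cd8a and 12.82 for Ccl5, but not in the class II genes.

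Cytokine genes moved in both directions. Of 18 tested, 2 rose and 1 fell, with a median of 0.19. Il1b, an inflammatory cytokine, read 6.39, 5.88, 6.52, 5.66 and 6.002 against 4.85 to 5.45 (median 4.91) and rose by 1.02 (SE 0.20, adjusted p = 0.0163), a call lost without CHFD 22B (adjusted p = 0.0514). Without background correction its difference was 0.39. Tgfb1 was detected on 5 of 6 CHFD and 0 of 6 CND arrays and was at least 1.22-fold higher (adjusted p = 0.0466), and it was lost without CHFD 10B, 22B, 28B or 8B or CND 14A, 18A, 20A, 36B or 38B (0.0502 to 0.133), with median scaling (0.107) and without background correction (0.0804). Il18, a cytokine made by epithelial cells, fell by 1.33 (SE 0.28, adjusted p = 0.0236), and was lost without CHFD 22B, 28B or 8B or CND 14A or 18A (0.0571 to 0.0782). Il33 differed by -0.55 (adjusted p = 0.0697). The pattern receptor gene Tlr2 differed by 1.15 (adjusted p = 0.0548), and Nts, the gene of the gut hormone neurotensin, rose by 1.60 (SE 0.25, adjusted p = 0.00341). Nts was detected on all 6 CHFD and 0 of 6 CND arrays and was at least 2.29-fold higher; without background correction its log2 difference was 0.63.

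The largest decrease of a named gene was in Aqp8, a water channel of the surface of absorptive cells. Aqp8 (ILMN_1367107) read 6.12, 7.14, 9.48, 4.81 and 6.21 in CHFD 10B, 4A, 22B, 28B and 8B against 9.01 to 12.56 (median 10.75) in CND, and fell by 3.86 (SE 0.73, adjusted p = 0.0125), or 14.5-fold (5.07 to 41.7). The spread was wide in both groups, and CHFD 22B lay among the CND samples while the other 4 lay below all of them. Aqp8 was the only one of 9 tested absorptive colonocyte markers and of 29 tested water and ion transport genes to pass, and the medians of these lists were -0.12 and -0.19. Within those lists the chloride channel regulator gene Clca4 differed by -1.08 (adjusted p = 0.311) and the glycerol channel gene Aqp7 by -0.64 (adjusted p = 0.394). Slc14a2, a urea transporter, read 4.56, 4.44, 4.57, 4.46 and 4.44 against 5.02 to 6.43 (median 6.17), and fell by 1.49 (SE 0.22, adjusted p = 0.00184). With detection on 0 of 6 CHFD and all 6 CND arrays, Slc14a2 was at least 2.23-fold lower, with a log2 difference of -0.56 without background correction. The monocarboxylate transporter gene Slc16a1, which carries butyrate, differed by -0.88 (adjusted p = 0.122).

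The retinoid-binding protein genes Rbp2 and Rbp7 fell. Rbp2, a retinol-binding protein inside absorptive cells, read 7.67, 7.20, 7.77, 6.80 and 6.98 against 7.94 to 10.34 (median 8.93) and fell by 1.74 (SE 0.28, adjusted p = 0.00341). Rbp7, of the same family, read 8.07, 7.80, 8.90, 7.67 and 7.72 against 9.12 to 9.99 (median 9.55) and fell by 1.48 (SE 0.22, adjusted p = 0.00192). Neither gene's groups overlapped. They were the 2 genes that passed among 18 tested genes of retinoid metabolism, whose median was 0.06, and 10 of the 18 differences were above 0. The dehydrogenase gene Adh4 differed by -0.79 (adjusted p = 0.111), and the carriers Crabp1 and Crabp2 by 0.13 and 0.08 (adjusted p = 0.812 and 0.962).

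Several other named genes fell and held without each sample. Sorcs2, a sorting receptor, fell by 1.25 (SE 0.20, adjusted p = 0.00441). Agmat, which hydrolyses agmatine to make polyamine precursors, read 4.60 to 5.01 in CHFD against 5.45 to 6.38 in CND and fell by 1.04 (SE 0.14, adjusted p = 0.00067). It was the only one of 16 tested arginine and polyamine genes to pass, and Arg2 differed by -1.21 (adjusted p = 0.24). Without background correction Sorcs2 differed by -0.50 and Agmat by -0.38. The glutathione transferase gene Gstm5 read 9.04, 9.16, 8.74, 8.73 and 8.49 against 9.46 to 10.37 (median 9.66) and fell by 0.97 (SE 0.16, adjusted p = 0.00441). Gnaz, a G-protein alpha subunit, fell by 0.92 (adjusted p = 0.00503), or by 0.56 without background correction, and Akr1b1, an aldose reductase, by 0.78 (adjusted p = 0.0164, or 0.055 with median scaling). In all 5 genes every CHFD sample was below every CND sample. At 5.29 to 5.57 against 4.33 to 5.08, Anpep, a brush border aminopeptidase, went the other way, with a rise of 0.86 (SE 0.14, adjusted p = 0.00441), or 0.30 without background correction. With the title number as a random block it missed the threshold (adjusted p = 0.0771). It was the only one of 12 brush border enzymes to pass, and of the others Ace differed by -1.10 (adjusted p = 0.0942) and Dpp4 by -0.63 (adjusted p = 0.238). The sialyltransferase gene St6gal1 rose by 1.18 (SE 0.23, adjusted p = 0.0155), or 0.49 without background correction, and missed the threshold in a fit of CHFD and CND alone (adjusted p = 0.0691).

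A further 4 genes passed with all samples but not without each of them. Dnase1l3, a secreted nuclease made by macrophages and dendritic cells, rose by 1.65 (SE 0.37, adjusted p = 0.0284) and was lost without CHFD 10B, 22B or 8B or CND 14A, 18A or 20A (0.0622 to 0.0888) or without background correction (0.065). Chp1, a calcium-binding partner of sodium-proton exchangers, fell by 1.29 (SE 0.30, adjusted p = 0.0341) and was lost without CHFD 10B, 22B, 28B or 8B or CND 18A, 20A or 32B (0.0534 to 0.106) or with median scaling (0.107). Cgref1 fell by 1.04 (SE 0.24, adjusted p = 0.0326) and was lost without CHFD 4A, 22B, 28B or 8B or CND 14A, 18A, 20A or 36B (0.0515 to 0.0976) or with median scaling (0.064). In 3 of these genes, Dnase1l3, Chp1 and Prap1, the groups did not overlap. Prap1, a proline-rich protein secreted in the gut, fell by 0.87 (SE 0.18, adjusted p = 0.0187) and was lost without CHFD 4A or 8B or CND 20A (0.0515 to 0.0631).

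Xenobiotic metabolism had members that passed in each direction. Of 33 tested, 2 rose (Pon3 and Pon2) and 3 fell, with a median of -0.21. The cytochrome P450 gene Cyp2d5 fell by 1.56 (SE 0.33, adjusted p = 0.0218), Cyp2d4 by 0.55 (SE 0.12, adjusted p = 0.0249) and the carboxylesterase gene Ces1d by 1.39 (SE 0.33, adjusted p = 0.0441). Cyp2d5 was lost without CHFD 4A, 28B or 8B or CND 14A or 20A (0.0558 to 0.0643) and Cyp2d4 without CHFD 4A, 22B or 8B or those 2 CND samples (0.0555 to 0.0681) or with median scaling (0.0543). Ces1d was lost without any sample other than CND 32B (0.0545 to 0.112), and with median scaling or without background correction (0.0591 and 0.0775). The cytochrome gene Cyp2c24 and the glucuronosyltransferase gene Ugt1a6 differed by -0.72 and -0.50 (adjusted p = 0.0722 and 0.0665).

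Lipid pathways showed few calls on a fat-rich diet. Scd, which desaturates fatty acids, read 6.61, 5.16, 5.51, 5.19 and 6.37 against 6.33 to 7.54 (median 6.98) and was the only one of 8 tested fatty acid synthesis genes to fall, by 1.18 (SE 0.27, adjusted p = 0.0341). That call was lost without CHFD 4A, 22B or 28B or CND 14A, 18A, 20A, 32B or 38B (0.0503 to 0.101), with median scaling (0.0966) and without background correction (0.0714). Me1, which supplies reducing power for synthesis, differed by -0.64 (adjusted p = 0.108). Of 33 genes of fatty acid oxidation and ketone synthesis 0 passed in limma, with a median of -0.06, and Hadha and Acadm, enzymes of beta-oxidation, differed by -0.33 and -0.51 (adjusted p = 0.129 and 0.321). The uncoupling protein gene Ucp2 differed by -0.51 (adjusted p = 0.14). Cholesterol synthesis had 15 of 16 tested genes below 0 and a median of -0.38, but 0 passed; Dhcr7, Sc5d, Tm7sf2 and Fdft1 differed by -0.69, -0.71, -0.73 and -0.58 (adjusted p = 0.0855, 0.0963, 0.104 and 0.111). That median was -0.11 within chip 1 and -0.49 within chip 2. Fabp4, a fatty acid carrier of fat and endothelial cells, ranged from 4.71 to 8.03 in CHFD and 7.20 to 9.22 in CND (-1.58, adjusted p = 0.127), and the lipase gene Lipe differed by -0.81 (adjusted p = 0.12).

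Proliferation genes had 23 of 30 differences below 0 and a median of -0.42, with 0 passing. Kif11 and Bub1, which act in mitosis, differed by -0.92 and -0.89 (adjusted p = 0.108 and 0.111), and Prc1 and Ube2c by -0.79 and -0.88 (0.142 and 0.148). The list's mean level ranged from 6.03 to 7.14 in CHFD and from 6.46 to 7.39 in CND, so the groups overlapped. The median ranged from -0.59 to -0.24 when 1 sample was left out, lowest without CHFD 8B, and was -0.47 within chip 1, -0.14 within chip 2 and -0.18 without background correction. Among 12 clock genes Nfil3, a transcription factor of the clock and of lymphoid cells, rose by 1.27 (SE 0.24, adjusted p = 0.0123), a call that held without each sample but not with median scaling (adjusted p = 0.12) or in a fit of CHFD and CND alone (0.053). Usp2, a deubiquitinase with daily rhythm, fell by 1.47 (SE 0.35, adjusted p = 0.0437) and was lost without CHFD 10B, 4A, 22B, 28B or 8B or CND 14A, 20A or 32B (0.0515 to 0.101) or without background correction (0.116). The labels used here give no time of collection.

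**Figure D4:**
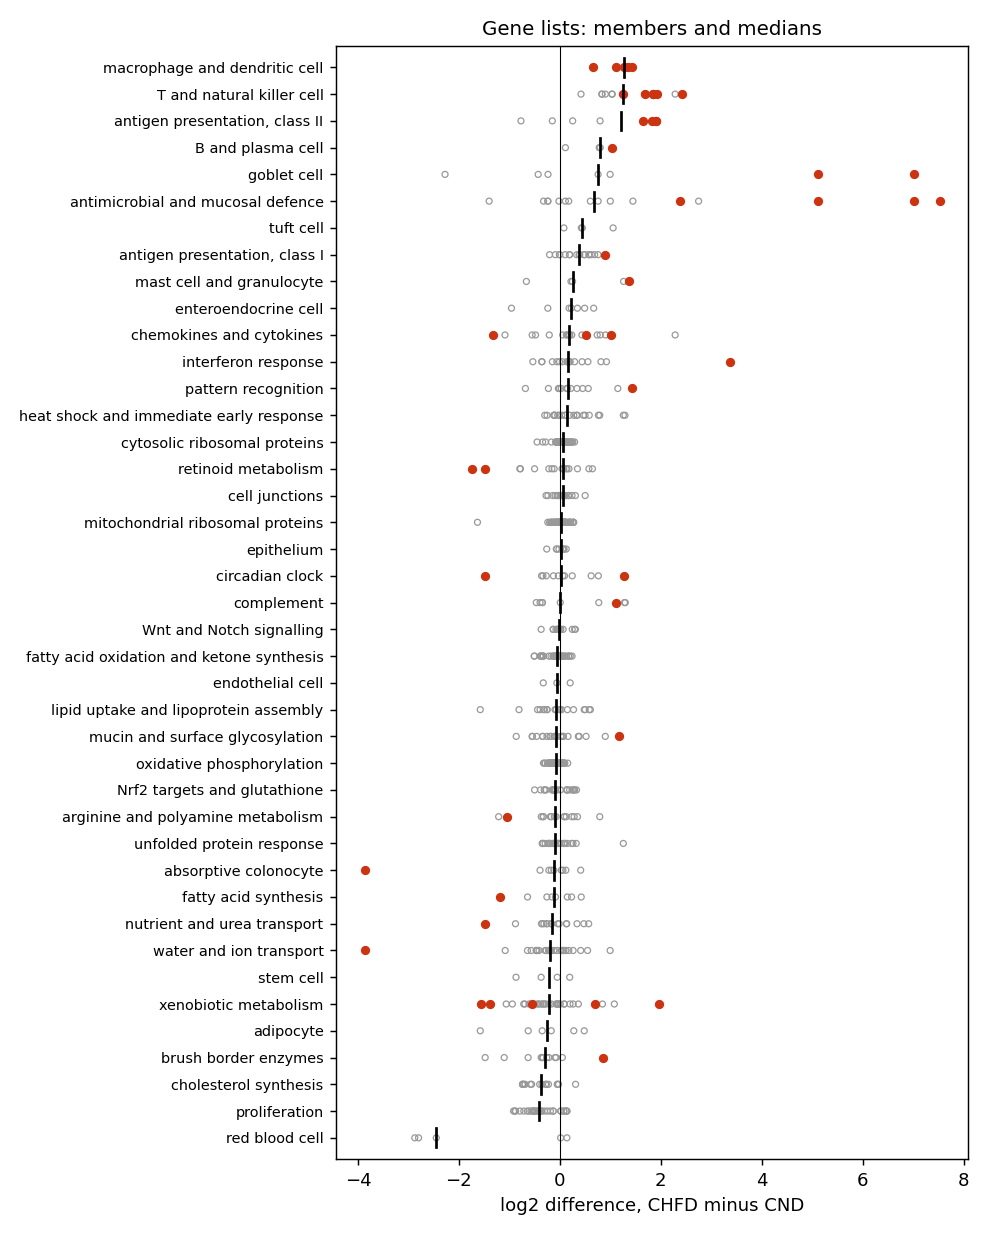
Log2 difference between CHFD and CND for each tested member (points, red where the adjusted p is under 0.05) and the median (black bar) of each list with at least 3 tested genes, ordered by median. Macrophage, T cell and class II lists lie at the top, with medians of 1.28, 1.25 and 1.22, and the red blood cell list at the bottom, at -2.45 with 0 genes past the threshold.

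Broad cell functions differed little. Of 57 oxidative phosphorylation genes, 58 cytosolic ribosomal protein genes, 57 mitochondrial ribosomal protein genes, 26 unfolded protein response genes and 23 Nrf2 target and glutathione genes, 0 passed, with medians of -0.08, 0.06, 0.02, -0.10 and -0.09. Heat shock and immediate early genes had 0 of 22 past the threshold and a median of 0.15, which was -0.35 within chip 1, 0.48 within chip 2 and -0.13 to 0.33 when 1 sample was left out. Their mean level was 10.36 in CHFD 4A against 8.59 to 8.94 in the other CHFD samples. Egr1, an immediate early transcription factor, read 12.76 in CHFD 4A and 11.16 in CND 14A, and 7.86 to 10.43 in the other samples. Mrpl18 read 4.48 to 9.70 in CND and 4.50 to 4.95 in CHFD (-1.63, adjusted p = 0.471).

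Of the 116 probes 21 carry no gene symbol in the platform's table, and some of them differed by large amounts. ILMN_1368735 read 4.79, 4.99, 5.76, 4.78 and 5.41 in CHFD against 9.59 to 12.78 (median 11.26) in CND, and fell by 6.09 (SE 0.54, adjusted p = 1.76e-06), the largest decrease of all probes. ILMN_1369184 rose by 3.21 (SE 0.53, adjusted p = 0.00441) and ILMN_1360243 by 2.22 (SE 0.41, adjusted p = 0.0111), or 1.80 and 1.35 without background correction. All 3 had no overlap between groups. Of the 22523 probes on the array, 11 were detected on every array of 1 group and none of the other. Of these, 9 were detected on the CHFD side and 2 on the CND side. Apart from Retnlb their lower bounds of the fold were only 1.13 to 2.29, so these probes lay near the limit of detection. Besides Retnlb, Nts, Tyrobp and Slc14a2, the kinase gene Limk1 (0.46, adjusted p = 0.0201, at least 1.18-fold higher) passed. The natural killer and T cell protease gene Ctsw (1.54, adjusted p = 0.111), the T cell checkpoint gene Lag3 (0.45, 0.288) and Prkcb (0.66, 0.0548), a kinase of B cell receptor signalling, did not. Of the 7345 genes, 141, or 1.92%, had no overlap between the 5 CHFD and 6 CND samples, and 85 of the 116 called probes had none.

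The arrays lay on 2 chips, and in CND chip and title letter cannot be told apart, since chip 1 held the samples with A and chip 2 those with B. The chip was a term in the fit. Each chip held 3 CHFD and 3 CND arrays, and CHFD 10B had an array on both, so the chips are not separate sets of samples. Within chip 1, 145 probes passed, 73 higher and 72 lower, and within chip 2, 5 passed, 2 higher and 3 lower. Aqp8 differed by -4.74 within chip 1 and -3.19 within chip 2, and Retnla by 7.44 and 7.25.

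The same diet was compared in rats born with IUGR, between RHFD (n = 3) and RND (n = 6), which share no sample with CHFD and CND. There 43 probes passed, or 0.422%. Of these 23 passed in both birth groups, 19.8% of the control-born calls and 53.5% of the IUGR calls, all 23 with the same sign. Of the 116 control-born calls 114 had the same sign in IUGR rats, and 96 were larger in size in control-born rats, the group they were called in. The share of same signs over all tested probes is not given here. Retnla, Retnlb and Itln1 differed by 7.004, 6.51 and 4.04 in IUGR rats (adjusted p = 0.0001, 4.3e-05 and 0.015), and Pon3 by 1.92 (adjusted p = 0.0039). Aqp8 differed by -2.73 there (adjusted p = 0.19), RT1-Da by 0.84 (0.58), Il18 by -0.09 (0.96) and Anpep by 0.13 (0.84). Fcer1g (1.23, adjusted p = 0.03), C1qa (1.43, 0.043) and Rbp2 (-1.61, 0.03) passed in IUGR rats, and Rbp7 (-0.97, 0.098) and Cd14 (0.50, 0.67) did not. The list medians in IUGR rats were 1.10 for T and natural killer cells and 1.32 for macrophages and dendritic cells. They were 0.42 for class II genes and -0.17 for B and plasma cells.

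Whether the diet effect differs between birth groups was tested directly as an interaction. In limma 0 of 10193 probes passed (0%), with a lowest adjusted p of 0.942, and 420 probes had an unadjusted p under 0.05. The smallest p-values among named genes were those of Vps52 (0.49 in control-born and -0.95 in IUGR rats), Cd79b (0.80 and -0.68) and RT1-S2 (0.48 and -2.31), each at an adjusted p of 0.942. A gene past the threshold in 1 birth group and not in the other is therefore not shown to differ between them.

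**Figure D5:**
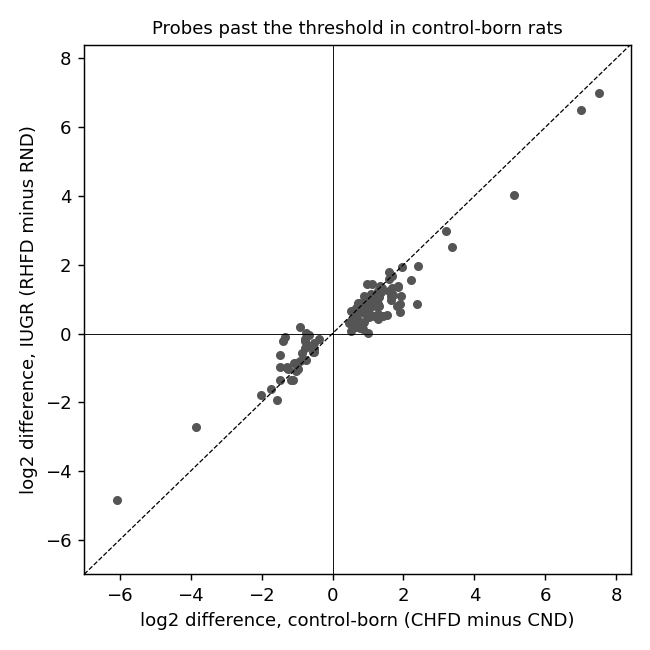
Log2 difference by diet in control-born rats (x axis, 5 CHFD against 6 CND samples) and in IUGR rats (y axis, 3 RHFD against 6 RND samples) for the 116 probes past the threshold in control-born rats, with the dashed line where both are equal. Of these, 114 have the same sign on both axes.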

How the data were processed

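Cells were profiled on Illumina rat arrays, whose readings were processed in GenomeStudio per the submitters' processing notes (version not given in the sources used here). Per the file headers, the main deposited table gives 1 averaged intensity a probe and array. Its values show no background subtraction and no scaling between arrays. Beside each intensity the authors deposited a detection p-value. The deposited series matrix holds quantile normalized intensity values of the same arrays, used as an alternative.

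Log2 values were computed here from the deposited intensities with neqc (limma 3.58.1, R 4.3.3, offset 16), which corrects the background and applies quantile normalization. Probes with detection p under 0.05 on at least 6 of 24 arrays were tested. Arrays sharing a title number were averaged. A linear model of group and chip was fitted to all 20 samples, with limma's moderated test and Benjamini-Hochberg adjustment. The fit was also run on simulated data with independent noise, no chip effect and no outlying sample. That run therefore cannot show how the calls depend on chip or on single samples. A gene is represented by its brightest probe; 7483 tested probes have 1 symbol, 2710 none. A group undetected on every array gives only a lower bound of the fold, computed against the dimmest detected probe, without sampling error. The number of arrays limits precision.

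Named genes are the 15 largest changes in each direction that held without each sample, the 8 largest others, list members past the threshold with up to 4 others by p, and up to 3 unnamed probes; 1 result under this rule is not reported here. Samples, lists and rules were chosen with earlier results of these data known. Alternatives changed the normalization, background, filter, chip term, array averaging, weights and samples. Promoters are from RefSeq; all 4 genes shown matched by symbol.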

Additional observations from a re-analysis of the deposited data

Results flagged for a closer look

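Each value was set against the other samples of its group, and a sample is given here where its gap to the nearest other sample took up most of the group's range (Dixon's test). Of 294 groups of values screened 19 were flagged, and chance flags about 1 in 20, or 14.7.

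CHFD 8B lay above the other CHFD samples in several T cell genes. It read 9.90 for Ptprcap against 7.70 to 8.17 in the others, 9.66 for Cd8a against 6.23 to 7.13, 8.95 for Cd3d against 5.95 to 6.80, 8.94 for Cd3g against 6.23 to 6.97 and 12.82 for Ccl5 against 8.97 to 9.53. For the unnamed probe ILMN_1360243 it read 9.85 against 7.55 to 7.75. The mean level of the T and natural killer cell list was 8.54 in CHFD 8B and 6.42 to 7.01 in the others.

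CHFD 4A lay above the other CHFD samples in 3 list means. The mean of the heat shock and immediate early list was 10.36 against 8.59 to 8.94, that of the mast cell and granulocyte list 6.99 against 5.91 to 6.21 and that of the unfolded protein response list 8.81 against 8.43 to 8.50. Among the chow samples, CND 14A had a mean of 9.51 for the heat shock and immediate early list against 8.56 to 8.72 in the others, and read 11.16 for Egr1 against 7.86 to 8.41.

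The remaining values were single samples. RT1-Da read 7.76 in CND 18A against 9.15 to 9.92 in the other CND samples, and Me1 8.57 in CND 20A against 7.96 to 8.13. The mean of the lipid uptake and lipoprotein assembly list was 8.58 in CND 32B against 7.88 to 8.12, and that of the Nrf2 target and glutathione list 10.54 in CND 36B against 10.60 to 10.63. In CHFD, Fcer1g read 8.44 in CHFD 22B against 8.69 to 8.73, Anpep 5.29 in CHFD 28B against 5.49 to 5.57 and Aqp7 5.47 in CHFD 22B against 4.46 to 4.66.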

How the results depend on the processing

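With the settings of the report 116 probes passed, 82 higher and 34 lower. Median scaling gave 61 (36 higher) and no filter on dim probes 57 (37 higher, 20 lower). A fit of only CHFD and CND samples gave 78 (59 higher, 19 lower). Within chip 1 there were 72 lower, and within chip 2, 5 in all (2 higher, 3 lower). Leaving out 1 sample gave 55 to 148 probes, lowest without CHFD 8B (55, of which 39 higher and 16 lower) and highest without CND 38B (109 higher), with up to 50 lower without CND 32B. The count was 59 without CND 20A (43 higher, 16 lower), 67 without CND 14A (47 and 20), 69 without CND 18A (47 and 22), 75 without CHFD 22B (20 lower), with 19 lower without CHFD 28B. The interaction gave 0 probes, but 2 within chip 1 and 1 without CND 38B. Fits within a chip or without a sample hold fewer samples, and some gave more probes, such as 145 within chip 1 and 148 without CND 38B. The cause of these changes was not tested. All 57 named genes and probes past the threshold kept their direction under all 24 alternatives, and 4 stayed past it in every one. The threshold was missed by 53 within chip 2, 24 without the filter, 18 with median scaling and 13 without background correction. A fit of only CHFD and CND samples lost 13 as well. Those 13 were Nfil3, St6gal1, Slpi, Cd3d, Cd3g, Cyp2d5, Cyp2d4, Usp2, Scd, Cgref1, Prap1, RT1-S3 and Tgfb1. Mrpl18, not past the threshold, reversed to 0.18 within chip 1. No paired analysis was possible because no title number occurs in both CHFD and CND. Dim probes, such as those of Slc14a2 and Nts, limit the size of a fold.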
